A study of Mus musculus with 24 samples.

Results

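The genes described here are 8 enzyme genes of gluconeogenesis, fructose use and the polyol pathway: Pck1, G6pc, Fbp1, Fbp2, Pcx, Khk, Akr1b3 and Sord. They were taken by symbol from a table of read counts per gene, by a rule that uses no measured value but was set with earlier results of these data known, and are 8 of the 48526 genes in it. All 8 passed the filter on low counts, which left 15808 genes for testing. The tissue was renal cortex, sequenced as bulk RNA from 24 C57BL/6 mice, with 6 in each of 4 groups that crossed diabetes with PMX-53, a peptide inhibitor of the complement receptor C5aR1. Diabetic mice had received 5 daily injections of 55 mg/kg streptozotocin, which kills pancreatic beta cells, from 6 weeks of age, and non-diabetic mice had received sodium citrate. Within each kind, mice were randomized to 2 mg/kg PMX-53 in the drinking water or to drinking water alone, called vehicle here, and were followed for 24 weeks. The 4 groups are thus non-diabetic on vehicle, diabetic on vehicle, non-diabetic on PMX-53 and diabetic on PMX-53. All carry the strain label C57BL/6, which names no substrain, and were sampled after the same follow-up, and the model is one of chemically induced loss of insulin. The labels name separate samples, so p-values measure the spread between these samples, part of which may be technical.

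The kidney cortex is, beside the liver, the main organ that makes new glucose, and it does so in the proximal tubule, chiefly from lactate and glutamine. Pyruvate carboxylase (Pcx) and phosphoenolpyruvate carboxykinase (Pck1) bypass pyruvate kinase, fructose-1,6-bisphosphatase (Fbp1, and Fbp2 in muscle) bypasses phosphofructokinase, and glucose-6-phosphatase (G6pc) releases free glucose. In the polyol pathway aldose reductase (Akr1b3) reduces glucose to sorbitol and sorbitol dehydrogenase (Sord) oxidizes sorbitol to fructose, which ketohexokinase (Khk) phosphorylates in the proximal tubule.

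The libraries held 10964992 to 22000895 counts, and the 8 genes together took 0.305% to 0.734% of them. Levels are given as CPM, which puts counts on a scale common to all libraries. The diabetic vehicle libraries stood apart from the other 18 in genes outside this pathway: Nnt, a mitochondrial enzyme gene known to differ between C57BL/6 substrains, was at 242 to 272 CPM there against 101 to 121 elsewhere, and Ide was at 62.2 to 76.5 CPM against 111 to 169. A difference in substrain or source between these 6 mice and the others cannot be told apart from diabetes on vehicle or from PMX-53 in diabetic mice. Diabetic vehicle replicate 4 also differed from its group in Kap, an androgen-responsive kidney gene, with 5556 CPM. The summed level of 9 androgen-responsive and male-biased genes was 13349 to 16456 CPM in non-diabetic vehicle, 995 to 7695 in diabetic vehicle and 6142 to 8772 in diabetic PMX-53 libraries. Diabetic vehicle replicate 4 alone held the 7695, and the other 5 libraries of its group reached 2529. In the same 6 libraries mitochondrially encoded genes took 25.9% to 31.9% of the counts, against 20.1% to 24.6% in the non-diabetic vehicle libraries. The diabetic PMX-53 libraries, at 22.21% to 28.98%, overlapped with both of these groups. Ribosomal RNA genes took a mean of 24.8% of the counts in diabetic vehicle, 18.8% in non-diabetic vehicle and 21.7% in diabetic PMX-53 libraries. Both shares count the mitochondrially encoded ribosomal RNA genes, so the mitochondrial and ribosomal RNA shares are not separate measures. Markers of the proximal tubule were abundant in every library. Over 8 markers of all its segments the summed level was 8471 to 12589 CPM, against 38.5 to 146 CPM for 7 markers of the inner medulla and papilla. By group the former sum was 11243 to 12265 CPM in non-diabetic vehicle, 8471 to 9757 in diabetic vehicle and 9158 to 10595 in diabetic PMX-53 libraries, so the vehicle groups did not overlap. The sum for 8 markers of its last segment, S3, was 6687 to 7441 CPM in the non-diabetic vehicle libraries, 2759 to 5149 in the diabetic vehicle libraries and 3971 to 4859 in the diabetic PMX-53 libraries. Diabetic vehicle replicate 4 alone held the 5149, and the other 5 libraries of its group reached 3470, below every diabetic PMX-53 library. The 8 S3 markers did not move as one: at an adjusted p of 0.05 in edgeR, 1 was higher and 6 lower with diabetes on vehicle. With PMX-53 in diabetic mice 5 were higher and 2 lower. One of the 8, Slco1a1, is also among the 9 androgen-responsive and male-biased genes. The sum for 8 markers of segments S1 and S2 was 7193 to 9503, 6793 to 8867 and 6883 to 10930 CPM in the same groups. Of these 8, 4 were higher and 2 lower with diabetes on vehicle, with a median log2 fold change of 0.26. With PMX-53 in diabetic mice 2 were higher and 1 lower. Of the 8 markers of all segments, 2 were higher and 5 lower with diabetes on vehicle. The sums thus follow the abundant markers and do not stand for each marker. All comparisons below that use the diabetic vehicle libraries rest on a group that differs in these ways as well, and the part of these differences in the results was not tested. In bulk tissue, fewer cells of a type and less RNA per cell cannot be told apart.

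Diabetes on vehicle was compared first, as diabetic against non-diabetic mice. Of the 8 genes, 4 passed the threshold of an adjusted p of 0.05, against 40.3% of all 15808 genes tested. Pck1, Fbp1 and Fbp2 rose, which is 3 of 8 where 20.4% of all genes were higher, and Pcx fell, which is 1 of 8 where 19.9% of all genes were lower. The median log2 fold change of the 8 genes was 0.03, and that of all genes was 0.00. The share called among the 8 was thus near that of all genes, and the account below rests on the single genes.

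Pck1 makes phosphoenolpyruvate from oxaloacetate in the cytosol and is the classical hormone- and acid-regulated gene of renal gluconeogenesis. It lies on chromosome 2 (GRCm38, chr2:173153048-173159273, plus strand). In non-diabetic vehicle libraries its level ran from 1256 to 2483 CPM with a median of 1410, and in diabetic vehicle libraries from 3058 to 3919 with a median of 3548. All 6 diabetic libraries lay above all 6 non-diabetic ones. Replicates 1 and 2 of the non-diabetic vehicle group, at 2483 and 2345 CPM, stood above their other 4 libraries, which reached 1442. The log2 fold change was 1.06 ± 0.23 (SE, n = 6 per group), or 2.09-fold, with an adjusted p of 0.00104 in edgeR's quasi-likelihood test. Without diabetic vehicle replicate 4 it was 1.06, with an adjusted p of 0.00193.

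Fructose-1,6-bisphosphatase is encoded by a pair of neighbouring genes on the minus strand of chromosome 13, Fbp2 (GRCm38, chr13:62836877-62858422) and Fbp1 (chr13:62864753-62888282), with 6330 bases between them. Fbp1 is the isoform of liver and kidney and Fbp2 that of skeletal muscle. The sequences upstream of Pck1, Fbp2 and Fbp1 are shown because these are the 3 genes that rose, because the 2 Fbp genes are neighbours, and because Pck1 is the textbook target of cyclic AMP signalling through a cyclic AMP response element (CRE). They come from RefSeq (GRCm38.p6), where 7 of the 8 genes had an entry, each is printed 5′ to 3′ on the strand of its gene, and capitals mark the CRE half-site TGACG, here on the opposite strand and so read as CGTCA. The windows are chr2:173152923-173153047 on the plus strand for Pck1, and chr13:62858423-62858550 and chr13:62888283-62888432 on the minus strand for Fbp2 and Fbp1. They reach up to 150 bases before the RefSeq start and leave out bases that the GENCODE annotation places inside the gene.
Pck1: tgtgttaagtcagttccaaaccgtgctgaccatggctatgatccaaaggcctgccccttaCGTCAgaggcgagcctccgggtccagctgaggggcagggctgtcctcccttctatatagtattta
Fbp2: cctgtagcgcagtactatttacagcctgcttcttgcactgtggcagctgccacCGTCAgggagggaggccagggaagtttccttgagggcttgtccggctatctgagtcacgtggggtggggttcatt
Fbp1: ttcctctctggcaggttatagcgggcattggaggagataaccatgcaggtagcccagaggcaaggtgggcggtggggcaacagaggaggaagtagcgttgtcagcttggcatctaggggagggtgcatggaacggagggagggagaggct
The half-site starts 90 bases before the RefSeq start of Pck1 and 97 bases before that of Fbp2. In the 250 bases before each start, searched on both strands, it was found for Khk as well, 74 bases before its start, and for no other of the 7 genes matched. Unlike those of Pck1 and Fbp2, the Khk match lies inside the gene in the GENCODE annotation, which holds the 128 bases before that RefSeq start. Over all 32851 RefSeq promoters searched in the same way, 17.8% held TGACG and 1.55% held the full element TGACGTCA, which none of the 7 genes held. A match describes these letters only.

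Fbp1 stood at 498 to 602 CPM with a median of 571 in non-diabetic vehicle libraries, and at 654 to 767 with a median of 728 in diabetic ones. The groups did not overlap. Its log2 fold change was 0.36 ± 0.09 (SE, n = 6 per group), or 1.28-fold, with an adjusted p of 0.00284 in edgeR. Fbp2 was far lower, at 7.63 to 9.61 CPM with a median of 8.83 in non-diabetic vehicle libraries and at 14.2 to 29.4 with a median of 19.1 in diabetic ones. These groups did not overlap either, and replicates 3 and 6 of the diabetic group, at 29.1 and 29.4 CPM, stood above its other 4, which reached 19.4. The fitted increase was 1.29 ± 0.15 on the log2 scale, or 2.44-fold, with an adjusted p of 3.01e-07, and 6 of 6 diabetic libraries were above the non-diabetic mean. Each Fbp2 level rests on 105 to 662 counts. Of the 8 skeletal muscle markers, 0 passed the filter on low counts, Myh4 was at 0 in every library, and their summed level was 0.118 to 1.02 CPM over all 24 libraries. The Fbp2 level was thus at least 7.30 CPM in libraries where the muscle markers together did not exceed 1.02 CPM.

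Pcx carries the first step, the carboxylation of pyruvate in the mitochondrion, and lies on chromosome 19 (GRCm38, chr19:4510472-4621752, plus strand). It ran from 639 to 739 CPM (median 666) in non-diabetic vehicle libraries and from 405 to 671 (median 534) in diabetic ones. It fell by 0.34 ± 0.09 (SE) on the log2 scale, with an adjusted p of 0.00525 in edgeR. All 6 diabetic libraries lay below the non-diabetic mean, but the groups overlapped through diabetic replicate 3, at 671 CPM. Pcx overlaps Lrfn4 on the opposite strand, which held 907 counts over all libraries against 239598 for Pcx.

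G6pc forms the last step, the release of glucose (GRCm38, chr11:101367561-101377903, plus strand). It did not pass the test for diabetes on vehicle. Its level was 274 to 918 CPM with a median of 528 in non-diabetic vehicle libraries and 332 to 722 with a median of 540 in diabetic ones. Both groups thus covered nearly the same range. The log2 difference was -0.04 ± 0.23, with a 95% interval of -0.52 to 0.45 and an adjusted p of 0.916. The sign of this difference turned without non-diabetic vehicle replicate 1, at 918 CPM, or without diabetic vehicle replicate 5, at 332 CPM, and it passed in none of the fits run.

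The fructose and polyol genes also did not pass in this comparison. Khk (GRCm38, chr5:30921431-30931248, plus strand) was held in a narrow range of 322 to 345 CPM (median 338) in non-diabetic vehicle libraries and ran from 310 to 470 (median 343) in diabetic ones. Its log2 difference was 0.10 ± 0.08 (95% interval -0.06 to 0.27, adjusted p 0.299). Sord (GRCm38, chr2:122234749-122265340, plus strand) ran from 841 to 916 CPM (median 873) and from 774 to 995 (median 850), a log2 difference of -0.03 ± 0.07 (interval -0.18 to 0.12, adjusted p 0.731). Akr1b3 (GRCm38, chr6:34302434-34317478, minus strand) was the lower of the polyol pair at 15.5 to 26.9 CPM (median 18.5) and 12.5 to 23.0 (median 18.0). Its log2 difference was -0.11 ± 0.17 (interval -0.46 to 0.25, adjusted p 0.658). For these 3 genes the groups overlapped, and the intervals allow a change of at most 0.46 in size on the log2 scale.

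**Figure D1:**
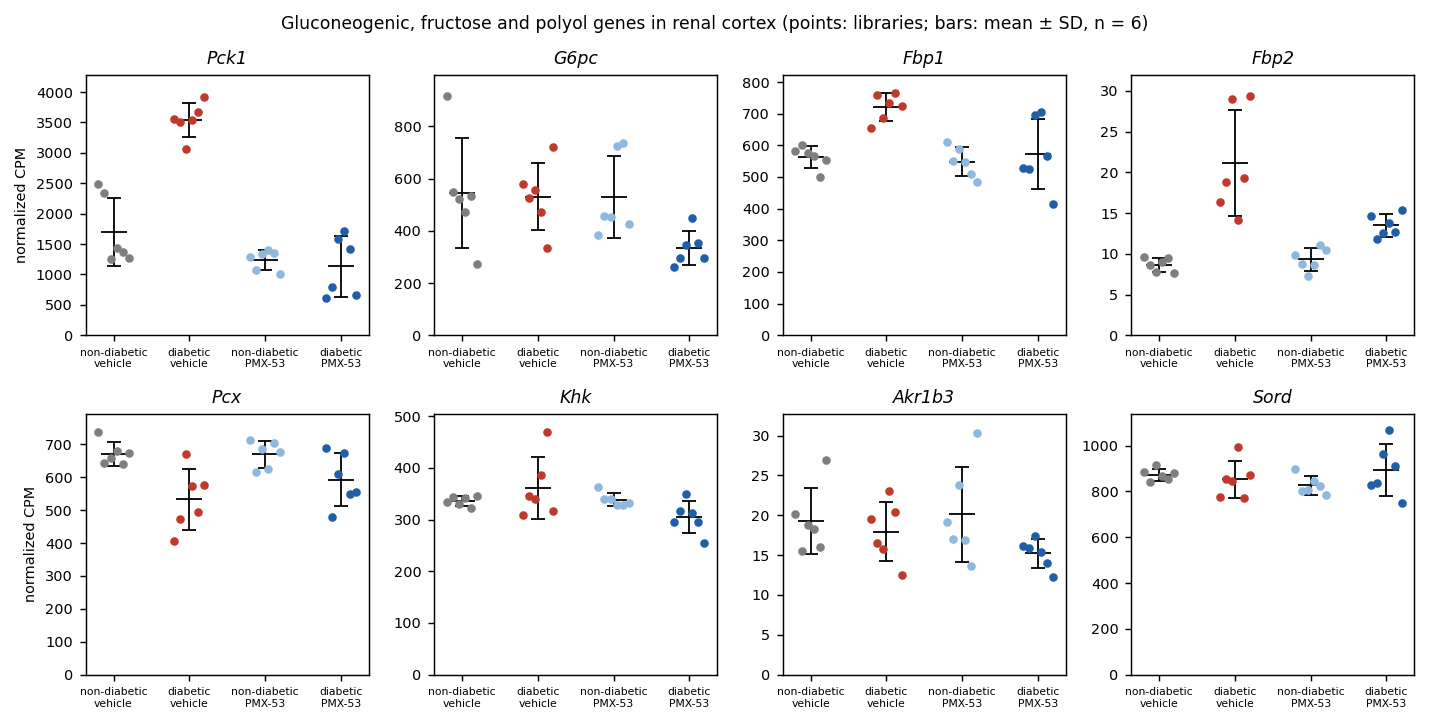
Normalized CPM of the 8 genes in each of the 24 libraries, by group, on linear axes that start at 0. Points are libraries and bars are mean ± SD (n = 6). Pck1 sits at 3058 to 3919 CPM in the diabetic vehicle group and at no more than 2483 in any other library, and Fbp2 is at 14.2 to 29.4 CPM in that group.

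PMX-53 in diabetic mice was compared as diabetic PMX-53 against diabetic vehicle libraries. Pck1, G6pc, Fbp1, Fbp2 and Khk fell, which is 5 of 8 genes, where 27.3% of all genes were called and 13.5% were called lower. None of the 8 was called higher, where 13.9% of all genes were. The median log2 fold change of the 8 genes was -0.29, beside 0.00 for all genes. The comparison shares the diabetic vehicle libraries with the one above, so the values of both are given side by side and opposite signs in them are not independent.

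Pck1 was at 619 to 1717 CPM with a median of 1110 in diabetic PMX-53 libraries, all below the lowest diabetic vehicle library at 3058. Its log2 fold change was -1.65 ± 0.24 (SE, n = 6 per group), a 3.13-fold lower level, with an adjusted p of 3.62e-05 in edgeR. Replicates 3, 4 and 5 of the treated group held 1577, 1717 and 1424 CPM, whereas replicates 1, 2 and 6 held 619, 796 and 660. The treated diabetic libraries thus lay at separate low and high levels of Pck1, 2.78-fold apart from lowest to highest.

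Fbp2 was at 11.8 to 15.3 CPM (median 13.3) in the treated libraries and fell by 0.66 ± 0.14 on the log2 scale, with an adjusted p of 0.00131. All 6 treated libraries lay below the diabetic vehicle mean, but the groups overlapped at 14.2 to 15.3 CPM, through diabetic vehicle replicate 4 alone, at 14.2 CPM. Without that library the log2 difference was -0.75, with an adjusted p of 9.95e-05 in edgeR. Fbp1 was at 415 to 705 CPM (median 548) and fell by 0.33 ± 0.09, with an adjusted p of 0.00819. Here too all 6 lay below the diabetic vehicle mean and the groups overlapped, through treated replicates 3 and 4 at 697 and 705 CPM. The Fbp1 call was lost without scaling beyond library totals, with a log2 difference of -0.22 and an adjusted p of 0.0725.

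G6pc was at 262 to 448 CPM (median 321) in the treated libraries and fell by 0.67 ± 0.23, with an adjusted p of 0.0374 and 6 of 6 libraries below the diabetic vehicle mean. That call was weak: it held in 3 of the 12 fits that left out 1 library of these groups, where adjusted p reached 0.0921. Leaving out diabetic vehicle replicate 1, 2, 3 or 6 or diabetic PMX-53 replicate 1, 2, 3, 5 or 6 ended it. Khk, at 256 to 349 CPM (median 304), fell by 0.25 ± 0.08, with an adjusted p of 0.0185 and 6 of 6 libraries below the diabetic vehicle mean. Diabetic vehicle replicate 5 alone held 470 CPM, and without it the log2 difference was -0.16, with an adjusted p of 0.0699. Without diabetic PMX-53 replicate 6, at 256 CPM, the adjusted p for Khk was 0.0511. The Khk call was also lost in a fit of only the groups compared (adjusted p 0.0790), and the G6pc call without a filter on low counts (adjusted p 0.0764).

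Pcx, Akr1b3 and Sord did not pass the test for PMX-53 in diabetic mice. Pcx was at 480 to 689 CPM (median 583), a log2 difference of 0.16 with a 95% interval of -0.04 to 0.35 and an adjusted p of 0.226. Akr1b3 was at 12.3 to 17.4 CPM (median 15.7), a log2 difference of -0.23 with an interval of -0.59 to 0.13. Sord was at 749 to 1069 CPM (median 874), a log2 difference of 0.07 with an interval of -0.08 to 0.22. The treated and untreated diabetic libraries overlapped for each of them.

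The counts in this comparison depend on the scaling. Without scaling beyond library totals, the median of all genes shifted to 0.12 and 79.5% of the called genes were higher, against 50.7% with scaling. Then 3 of the 8 genes were called, beside 4510 of all genes. Pck1 and Fbp2 were called lower, Fbp1, G6pc and Khk were not called, and Pcx passed as higher, with a log2 difference of 0.27 and an adjusted p of 0.0267. For diabetes on vehicle the same setting moved the median of all genes to -0.09 and the share of called genes that were higher from 50.7% to 31.2%. There 4 of the 8 genes were still called, beside 5784 of all genes.

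PMX-53 in non-diabetic mice was compared with vehicle in libraries that do not include the diabetic vehicle group. None of the 8 genes was called, and 0% of all genes were. By edgeR 1142 genes, or 7.22%, had an unadjusted p under 0.05, and 4 genes were called by DESeq2 and 0 by limma voom, in neither case one of the 8. Pck1 was at 1002 to 1404 CPM (median 1313) under PMX-53, with vehicle replicates 1, 2 and 4 above all of these, a log2 difference of -0.45 with a 95% interval of -0.93 to 0.04 and an adjusted p of 0.728. The other 7 genes differed by -0.08 to 0.10 on the log2 scale. G6pc was at 384 to 735 CPM under PMX-53 and its interval was -0.53 to 0.45, and Fbp2 was at 7.30 to 11.1 CPM with an interval of -0.22 to 0.43. Both groups overlapped for all 8 genes.

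Diabetes on PMX-53 was compared as diabetic against non-diabetic mice that all drank the inhibitor. Fbp2 alone rose, which is 1 of 8 where 10.0% of all genes were called, 5.52% higher and 4.52% lower. The median of the 8 was -0.14, beside 0.00 for all genes. Fbp2 ran from 7.30 to 11.1 CPM (median 9.30) in the non-diabetic and from 11.8 to 15.3 (median 13.3) in the diabetic libraries, without overlap. Its log2 fold change was 0.53 ± 0.15 (SE, n = 6 per group), or 1.44-fold, with an adjusted p of 0.0252 in edgeR and 6 of 6 libraries above the non-diabetic mean. The call was lost in 5 of the 12 fits that left out a library, namely without non-diabetic PMX-53 replicate 2, 3 or 4 or diabetic PMX-53 replicate 1 or 6, where adjusted p was 0.0518 to 0.0678.

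The other 7 genes did not pass between these groups. G6pc was lower by a log2 difference of -0.67 ± 0.23, as large as with PMX-53 in diabetic mice, with 6 of 6 diabetic libraries below the non-diabetic mean, but an adjusted p of 0.0758. It passed in DESeq2 (adjusted p 0.0485) and in an edgeR fit of these groups alone (adjusted p 0.0433). Pck1 differed by -0.13 with an interval of -0.62 to 0.35, and 3 of the 6 diabetic libraries lay on each side of the non-diabetic mean. Akr1b3 differed by -0.40 (interval -0.76 to -0.04, adjusted p 0.150), Pcx by -0.18 (adjusted p 0.248), Khk by -0.15 (adjusted p 0.225), Sord by 0.11 (adjusted p 0.360) and Fbp1 by 0.06 (adjusted p 0.725).

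The interaction asks whether PMX-53 changed a gene differently in diabetic and in non-diabetic mice. For 2 of the 8 genes it passed, both with a lower value in diabetic mice, where 9.42% of all genes passed, 4.66% higher and 4.76% lower. The interaction of Pck1 was -1.20 ± 0.33 on the log2 scale (adjusted p 0.0261 in edgeR), from a PMX-53 difference of -1.65 in diabetic and -0.45 in non-diabetic mice. That of Fbp2 was -0.76 ± 0.21 (adjusted p 0.0248), from -0.66 and 0.10. Without a filter on low counts neither passed, with adjusted p of 0.0595 and 0.0650. That of Fbp2 also did not pass in edgeR without scaling beyond library totals (adjusted p 0.0519) or in limma voom (adjusted p 0.0508). G6pc (-0.63, adjusted p 0.250), Fbp1 (-0.29, adjusted p 0.159) and Khk (-0.26, adjusted p 0.141) did not pass, so a difference between diabetic and non-diabetic mice was not shown for them. The median interaction of the 8 was -0.29, beside 0.01 for all genes. The diabetic vehicle libraries enter the interaction too.

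**Figure D2:**
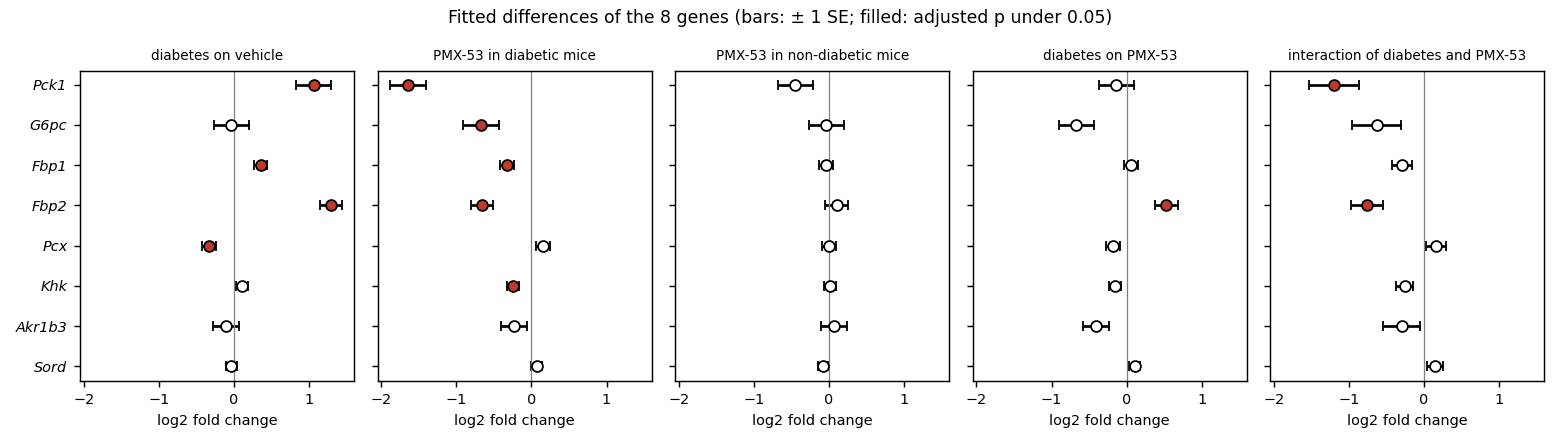
Log2 fold changes of the 8 genes in the 4 comparisons and the interaction, with bars of 1 standard error. Filled points passed an adjusted p of 0.05. Pck1 is at 1.06 with diabetes on vehicle, -1.65 with PMX-53 in diabetic mice and -0.13 with diabetes on PMX-53, and only Fbp2 is filled in that last comparison.

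The genes also differed in how far single mice of a group lay from each other. In non-diabetic vehicle libraries the coefficient of variation was 2.76% for Khk, 3.04% for Sord, 5.42% for Pcx, 6.31% for Fbp1 and 9.82% for Fbp2. Akr1b3, Pck1 and G6pc varied more, with 21.5%, 33.2% and 38.4%. G6pc thus spread 3.35-fold from the lowest to the highest mouse of 1 group. Pck1 had a coefficient of 7.94% in the diabetic vehicle group and 43.7% in the diabetic PMX-53 group. Khk, by contrast, went from 2.76% in non-diabetic to 16.5% in diabetic vehicle libraries, where replicate 5 was high at 470 CPM. These spreads are descriptions and were not tested against each other.

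Within the diabetic PMX-53 group several genes followed the same libraries. Replicates 3, 4 and 5 were the highest for Pck1 (1577, 1717 and 1424 CPM), G6pc (345, 448 and 353), Fbp1 (697, 705 and 567) and Sord (964, 1069 and 912). Replicate 6 was the lowest for Fbp1 (415), Khk (256), Akr1b3 (12.3) and Sord (749), but the highest for Fbp2 (15.3). Pcx was highest in replicate 1 (689) and so did not follow the same order. The summed level of the S1 and S2 markers in replicates 1 to 6 was 8857, 8558, 10003, 10930, 9074 and 6883 CPM, so it too was highest in replicates 3, 4 and 5 and lowest in replicate 6. Its part in the spread of these genes was not tested.

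**Figure D3:**
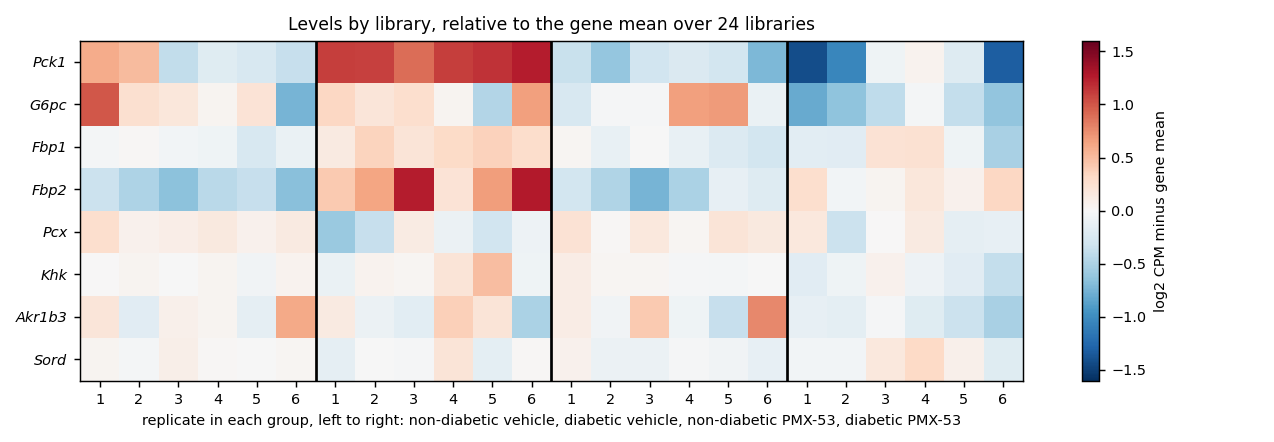
Log2 CPM of the 8 genes in each library, minus the gene's mean over 24 libraries (red above, blue below). Columns are replicates 1 to 6 of each group in the order of the axis label. The row of Pck1 is red throughout the diabetic vehicle group, and in the diabetic PMX-53 group it is blue in replicates 1, 2 and 6, at 619, 796 and 660 CPM.

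Levels of different genes were compared per length, as CPM per kilobase of the longest protein-coding transcript. In non-diabetic vehicle libraries the mean order was Pck1 at 637, Fbp1 at 381, Sord at 371, G6pc at 226, Khk at 212, Pcx at 162, Akr1b3 at 13.9 and Fbp2 at 6.41. Pck1 did not overlap with Fbp1, since its lowest library held 472 and the highest of Fbp1 held 407. Fbp1 and Sord overlapped, as did Sord and G6pc, with 1 G6pc library at 380 against a lowest Sord library of 357, and G6pc and Khk. Khk, at 203 to 218, lay above Pcx, at 154 to 178. Akr1b3 lay above Fbp2 in every library of this group, while the means in diabetic vehicle libraries were 12.9 and 15.6. In non-diabetic vehicle libraries too, the order of this pair depends on the length used: with all annotated exons, which for Akr1b3 span 8384 bases, the means were 2.30 for Akr1b3 and 5.91 for Fbp2. Between the isoforms of fructose-1,6-bisphosphatase, Fbp1 was at 487 and Fbp2 at 15.6 CPM per kilobase in diabetic vehicle libraries.

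Akr1b3 is known as a gene of the inner medulla, where sorbitol serves as an osmolyte. Its highest libraries were non-diabetic vehicle replicate 6 at 26.9 CPM and non-diabetic PMX-53 replicate 6 at 30.3 CPM. The inner medulla and papilla markers summed to 39.2 CPM in the former, the lowest of its group, and to 102 CPM in the latter, the highest of its group. Across groups that sum was 39.2 to 77.5 CPM in non-diabetic and 87.1 to 146 CPM in diabetic vehicle libraries, without overlap, while Akr1b3 overlapped between them. Akr1b3 overlaps the antisense gene Gm14546, which held 1 count in all libraries.

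Genes linked to the 8 are given next, as log2 fold changes, from lists chosen with results of these data known. Their counts stand against 20.4% of all genes higher and 19.9% lower with diabetes on vehicle, 13.9% and 13.5% with PMX-53 in diabetic mice, and 5.52% and 4.52% with diabetes on PMX-53, with medians of 0.00 in each. Other enzymes of the gluconeogenic route made up a list of 12 genes. With diabetes on vehicle 10 rose and 1 fell, with a median log2 fold change of 0.29. With PMX-53 in diabetic mice 1 rose and 6 fell (median -0.16), and with diabetes on PMX-53 4 rose and 1 fell (median 0.07). The 4 genes with the smallest p for diabetes on vehicle were Got1 (0.59), cytosolic aspartate aminotransferase, Gpt2 (0.63), mitochondrial alanine aminotransferase, Me1 (-1.17), malic enzyme, and Mdh1 (0.35), cytosolic malate dehydrogenase. Under PMX-53 in diabetic mice those named were Mdh1 (-0.38), Got1 (-0.35) and Slc37a4 (-0.39), the transporter that brings glucose-6-phosphate to G6pc. Slc37a4 stood at 166 to 202 CPM in non-diabetic vehicle, 206 to 238 in diabetic vehicle and 141 to 216 in diabetic PMX-53 libraries. It rose by 0.29 with diabetes on vehicle, where G6pc did not pass. Me1, which removes malate from the route, was at 283 to 328 CPM in non-diabetic and 95.7 to 222 in diabetic vehicle libraries, without overlap, and to no more than 137 in the latter without replicate 4. With diabetes on PMX-53, Gpt2 (0.36), Pck2 (0.38), the mitochondrial partner of Pck1, and Gpt (0.50) rose and Me1 fell (-0.50).

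The enzymes that work in both directions of the route, 7 genes from Gpi1 to Eno1, included 6 that rose and 0 that fell with diabetes on vehicle (median 0.30). With PMX-53 in diabetic mice 0 rose and 5 fell (median -0.20), and with diabetes on PMX-53 only Eno1 (0.28) rose. The 4 named by the smallest p were the same in the former 2 comparisons: Eno1 (0.82, then -0.54), Pgk1 (0.28, then -0.20), Gpi1 (0.30, then -0.19) and Gapdh (0.40, then -0.29). A list of 15 genes held hexokinases, phosphofructokinases and pyruvate kinases of the opposing steps. It also held regulators of pyruvate dehydrogenase, among them Pdk1, which are not steps of glycolysis. Of the 15, 9 rose and 1 fell with diabetes on vehicle (median 0.50). Led by the smallest p these were Pkm (1.08), Pdk1 (1.03), Pfkl (0.51) and Pklr (0.96). With PMX-53 in diabetic mice 1 rose and 9 fell (median -0.34), namely Pklr (-0.90), Pdk1 (-0.73), Pkm (-0.56) and Pfkl (-0.34) by the smallest p. With diabetes on PMX-53, 5 rose and 0 fell, among them Pkm (0.41).

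Lactate and glutamine feed the route, and 14 genes of their transport and breakdown were listed. With diabetes on vehicle 7 rose and 1 fell (median 0.17), and with PMX-53 in diabetic mice 0 rose and 5 fell (median -0.14). Slc38a3, the glutamine transporter of the basolateral membrane, stood at 17.4 to 34.9 CPM in non-diabetic vehicle, 68.7 to 166 in diabetic vehicle, 9.47 to 21.6 in non-diabetic PMX-53 and 14.1 to 37.0 in diabetic PMX-53 libraries. It rose by 2.21 with diabetes on vehicle, fell by 1.96 with PMX-53 in diabetic mice and rose by 0.93 with diabetes on PMX-53. Its diabetic vehicle libraries overlapped with none of the others. Glud1, glutamate dehydrogenase, rose by 0.84, fell by 0.70 and rose by 0.20 in the same comparisons. Slc16a7, a monocarboxylate transporter, rose by 0.58 with diabetes on vehicle and by 0.41 with diabetes on PMX-53, and Slc5a8, a lactate transporter of the S3 segment, fell by 0.47 with PMX-53 in diabetic mice.

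Fructose uptake and breakdown were followed in 8 genes, of which 5 rose and 1 fell with diabetes on vehicle (median 0.49). With PMX-53 in diabetic mice 2 rose and 4 fell (median -0.28). Slc2a5, the fructose transporter, rose by 0.81 and fell by 0.66, and Slc2a2, a glucose and fructose transporter, rose by 0.54 with diabetes on vehicle. Glyctk, glycerate kinase, moved the other way: it fell by 1.01 with diabetes on vehicle, rose by 0.73 with PMX-53 in diabetic mice and fell by 0.34 with diabetes on PMX-53. Khk itself was called in 1 of these comparisons only, as given above.

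A list of 10 genes beside the polyol enzymes held aldo-keto reductases, the family of Akr1b3. It also held Aldh1a1, an aldehyde dehydrogenase outside that family. Of the 10, 3 rose and 5 fell with diabetes on vehicle (median -0.13), and 2 rose and 2 fell with PMX-53 in diabetic mice (median 0.19). Aldh1a1 had the smallest p in both comparisons, with log2 fold changes of 2.85 and -1.86. It stood at 6.10 to 11.1 CPM in non-diabetic vehicle, 38.3 to 72.5 in diabetic vehicle and 12.0 to 21.7 in diabetic PMX-53 libraries. Akr1b8, a relative of aldose reductase, fell by 1.00 with PMX-53 in diabetic mice, and Akr1a1, aldehyde reductase, rose by 0.37. Osmolyte genes, 8 in all, included 4 that rose with diabetes on vehicle and 4 that fell with PMX-53 in diabetic mice, with medians of 0.40 and -0.27. Slc6a12, the betaine transporter, was low at 0.0735 to 0.361 CPM in non-diabetic vehicle, 0.802 to 3.28 in diabetic vehicle and 0 to 0.413 in diabetic PMX-53 libraries. Gdpd5, an osmotically regulated phosphodiesterase, rose by 1.22 and then fell by 0.45, while Nfat5, the osmotic transcription factor, did not pass in either (0.09 and -0.13).

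Regulators of gluconeogenic genes, 20 in all, moved both ways: 7 rose and 7 fell with diabetes on vehicle (median 0.06), and 2 rose and 6 fell with PMX-53 in diabetic mice (median -0.11). Ppargc1a, the coactivator of gluconeogenic and mitochondrial genes, rose by 0.65 and fell by 0.38. Cebpb, a transcription factor of the liver programme, rose by 1.12 and fell by 1.47, and Foxo3 rose by 0.92 and fell by 0.73. Nr3c1, the glucocorticoid receptor, fell by 0.57 and rose by 0.35. With diabetes on PMX-53, 1 rose and 2 fell, namely Irs1 (0.32), Sik1 (-0.49) and Creb1 (-0.25). Of 12 partners of Pcx, other biotin enzymes and redox enzymes, 4 rose and 4 fell with diabetes on vehicle (median 0.05). Like Pcx, the biotin-dependent carboxylase subunits Pcca (-0.53) and Mccc1 (-0.27) fell, while Hlcs (0.36), which attaches biotin, rose. With PMX-53 in non-diabetic mice 0 genes of any of these lists were called.

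**Figure D4:**
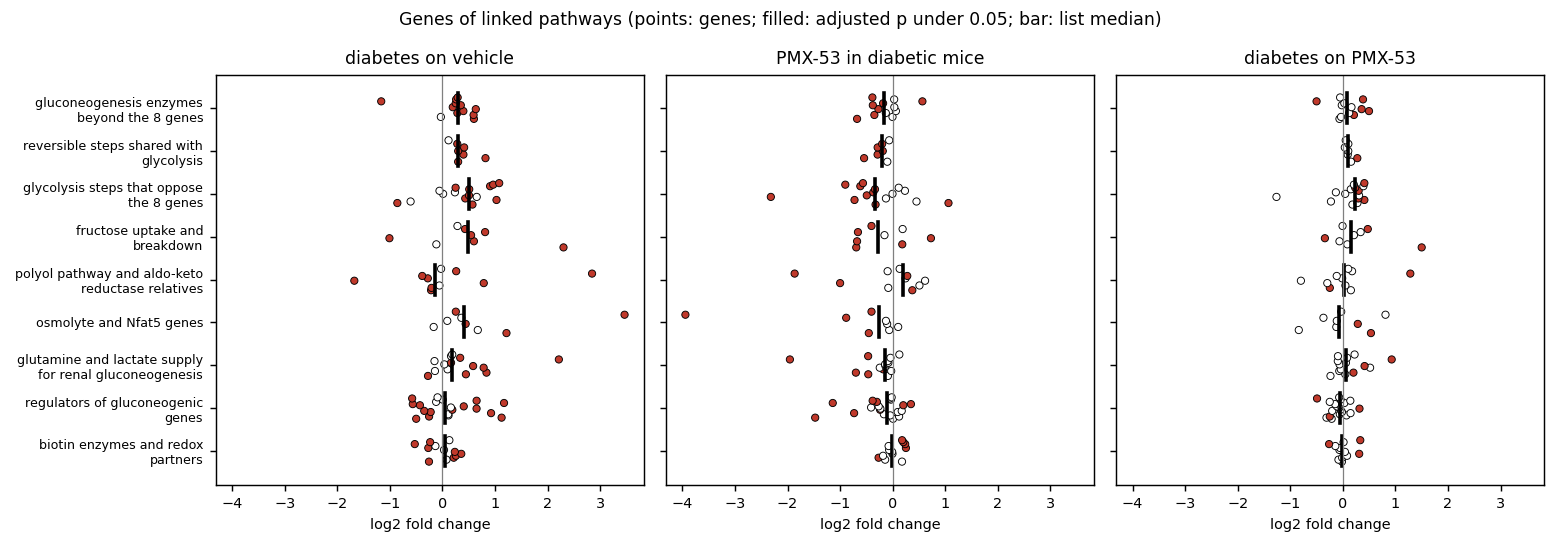
Log2 fold changes of the genes of the 9 linked lists in 3 comparisons. Points are genes, filled where adjusted p was under 0.05, and bars are list medians. The list of opposing glycolytic steps also holds regulators of pyruvate dehydrogenase. Its median is at 0.50 with diabetes on vehicle and -0.34 with PMX-53 in diabetic mice.

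Genes whose pattern over the 24 libraries was most like that of each called gene were found by the root mean square difference between centred log2 CPM values, among 11583 candidates. Nearest to Pck1 were Slc13a2, a citrate and dicarboxylate transporter of the proximal tubule (0.39), Glul, glutamine synthetase (0.41), and Wdfy1 (0.43), where the SD of Pck1 itself was 0.78. Slc13a2 stood at 37.5 to 63.7 CPM in non-diabetic vehicle, 63.1 to 104 in diabetic vehicle, 32.1 to 57.5 in non-diabetic PMX-53 and 28.6 to 61.5 in diabetic PMX-53 libraries. Wdfy1, at 66.6 to 79.6 CPM in diabetic vehicle libraries and 26.1 to 33.2 elsewhere, separated that group from all others as Nnt and Ide did. Nearest to Fbp2 were Lgals3bp, a secreted glycoprotein (0.12), Atf5, a stress-related transcription factor (0.21), and Apmap (0.22), with an SD of 0.53 for Fbp2. Lgals3bp ran from 26.7 to 34.8 CPM in non-diabetic and from 47.5 to 105 in diabetic vehicle libraries. Sesn2, a stress-induced inhibitor of mTORC1 signalling, was nearest to G6pc (0.22, SD 0.47). For Fbp1 it was Acat2 (0.09, SD 0.22), for Pcx it was Folr1, the folate receptor of the tubule (0.09, SD 0.22), and for Khk it was Tmbim4 (0.10, SD 0.15), whose distance was closest to the gene's own SD. These distances describe the libraries, which share groups and depth, and carry no test.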

How the data were processed

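RNA of renal cortex from 24 mice was measured with 200 ng of total RNA per library, depleted of ribosomal RNA and made with a directional kit, per the labels' protocols. The submitters' processing notes name bcl2fastq 2.20.0.422, STAR and the GRCm38 build. Version of STAR, annotation, counting tool and strand setting were not given in the sources used here, so overlapping genes may not be separable. The deposited table gives raw read counts per gene, as whole numbers, per the file headers. Totals ran from 10964992 to 22000895 counts per library, and counting error is largest for low genes. No replicate pair looked like a repeat of 1 library: within groups, all 60 pairs had a chi-square per degree of freedom of 5.65 or more.

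Testing used edgeR 4.0.16 in R 4.3.3: filtering by expression over the 4 groups, scaling by the trimmed mean of M-values, 1 coefficient per group over all 24 libraries, robust quasi-likelihood F tests and Benjamini-Hochberg adjustment over 15808 genes at 0.05. The standard error is the log2 fold change divided by the square root of F. Alternatives were DESeq2 1.42.0, limma 3.58.1 with voom, other scalings and filters, a replicate block, fits on only the groups compared, removal of mitochondrial and ribosomal RNA genes, and each library left out. Figures used Python 3.11.15 and matplotlib 3.10.9. Positions come from GENCODE M21 on GRCm38, which matched 48144 of 48526 genes.

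The 8 genes and all lists were chosen with earlier results of these data known. Named genes are the 8, up to 4 called genes of each list with the smallest p in the comparison described, and 3 genes per called gene nearest in pattern (average log2 CPM of at least 1, pseudocount 0.5 CPM). Genes the rule takes in 1 comparison are shown in others too. A few genes it takes are not reported here. Nfat5, Nnt, Ide, Kap, Lrfn4 and Gm14546 fall outside it and were named with their values in view.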

Additional observations from a re-analysis of the deposited data

Results flagged for a closer look

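The effect of PMX-53 differed between diabetic and non-diabetic mice, by a test of the interaction, for 2 of the 8 genes and 9.42% of all genes. For Pck1 the interaction was -1.20 on the log2 scale (adjusted p 0.0261 in edgeR), with diabetic PMX-53 libraries at 619 to 1717 CPM, diabetic vehicle at 3058 to 3919, non-diabetic PMX-53 at 1002 to 1404 and non-diabetic vehicle at 1256 to 2483. For Fbp2 it was -0.76 (adjusted p 0.0248), with 11.8 to 15.3, 14.2 to 29.4, 7.30 to 11.1 and 7.63 to 9.61 CPM in the same groups. Neither interaction passed without a filter on low counts, and that of Fbp2 did not pass without scaling or in limma voom. Both interactions use the diabetic vehicle libraries, which also stood apart in Nnt and Ide, and the part of that in these values was not tested. A single library far from its group was looked for in 32 sets of 6 libraries, 1 for each gene and group, and 0 met the criterion, where chance gives about 1 in 20.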

How the results depend on the processing

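Over 9 alternatives and 24 omissions of single libraries, Pck1, Fbp1, Fbp2 and Pcx passed for diabetes on vehicle, and Pck1 and Fbp2 for PMX-53 in diabetic mice, wherever these were run. Without scaling beyond library totals, 3 of the 8 genes were called for PMX-53 in diabetic mice, beside 4510 of all genes. For the interaction it was 1 of the 8, beside 1336 of all genes. In that setting 871 genes of all were called for diabetes on PMX-53, 65.7% of them higher against 54.9% with scaling. For the interaction that setting called 79.3% higher against 49.5%, with the median of all genes at 0.12. Without a filter on low counts, 1 gene was called for PMX-53 in non-diabetic mice, and 0 of the 8 were called for diabetes on PMX-53 and for the interaction. DESeq2 called 4 genes for PMX-53 in non-diabetic mice and 2 of the 8 for diabetes on PMX-53, as did a fit of only the groups compared (2), and limma voom called 1 of the 8 for the interaction. The cause of these differences was not tested, and the counts of the 8 describe the settings only. Differences of uncalled genes that turned in sign were G6pc with diabetes on vehicle (0.015 in limma voom), G6pc with PMX-53 in non-diabetic mice (0.0019 in limma voom) and Pcx there (0.0027 without a filter).

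With 1 library left out, 3 to 5 of the 8 genes were called for PMX-53 in diabetic mice, with 3 without diabetic PMX-53 replicate 6, and 0 to 1 for diabetes on PMX-53. Of all genes, 3507 to 4841 and 1134 to 1544 were called in these fits. The interaction was called for 1022 to 2242 genes of all, with 2242 without diabetic vehicle replicate 4, and for 2 of the 8 in each of 24 fits. Signs of uncalled differences turned within ranges of -0.17 to 0.18 for G6pc and -0.19 to 0.012 for Akr1b3 with diabetes on vehicle. With PMX-53 in non-diabetic mice they turned within -0.18 to 0.17 for G6pc, -0.022 to 0.026 for Pcx, -0.010 to 0.020 for Khk and -0.086 to 0.18 for Akr1b3, and with diabetes on PMX-53 within -0.0051 to 0.14 for Fbp1. Same-numbered libraries of different groups deviated from their group means with correlations of -0.16 to 0.15 over 36 pairs, and 5 exceeded 0.1. For differently numbered libraries the correlations were -0.21 to 0.26 over 180 pairs, and 28 exceeded 0.1. Libraries were therefore treated as unpaired, but these correlations cannot show whether same-numbered ones share more than a number. With the replicate number as a block, 4, 4, 0 and 1 of the 8 genes were called in the 4 comparisons in the order of the text, and G6pc with PMX-53 in diabetic mice had a log2 difference of -0.70 and an adjusted p of 0.0599. Depth limits the low genes most: Fbp2 rests on 105 to 662 counts a library and Akr1b3 on 154 to 518.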
